A study of Mus musculus with 24 samples.

Results

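Luminal epithelial structure genes are described here in mammary glands of irradiated and sham mice. The 10 genes are Epcam, Cdh1, Krt7, Krt8, Krt18, Krt19, Cldn3, Cldn4, Cldn7 and Muc1. They were chosen by name, as genes whose mRNA is taken as a measure of the epithelium in a gland sample. No measured value set the choice, but earlier results of these data were known when it was made. The array carried 13 probes for them, out of 55681 probes for 34797 gene names. Each gene is given by its brightest probe, and the other probes of Krt8, Cldn4 and Cldn7 are given beside it.

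The milk ducts of the mammary gland are a tube of epithelium within a pad of fat. The luminal cells that line the duct are filled with simple keratins, are held together by E-cadherin and claudins, and carry mucins on the surface that faces the lumen. Basal, or myoepithelial, cells wrap around them and express other keratins and smooth muscle proteins. Adipocytes, fibroblasts, vessels and, in some glands, a lymph node share the same tissue, so that mRNA of the luminal genes in a whole gland depends on how much epithelium was in the piece. In such bulk samples, fewer cells of a type and less RNA per cell cannot be told apart.

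The study asked how mammary glands respond to low-dose ionizing radiation (LDIR) and how a pair of strains that differ in susceptibility to radiation-induced mammary cancer compare. Female BALB/c mice, a laboratory strain, and SPRET/EiJ mice, a strain derived from another mouse species, received 10 cGy of X-rays to the whole body or a sham exposure. Exposure was at 8 to 9 weeks of age. BALB/c glands were taken 2, 4 and 8 weeks later, and SPRET/EiJ glands 4 weeks later. There were 8 groups of 3 mice, with LDIR and sham at each of these 4 combinations of strain and time, and 24 arrays in all. Replicates are lettered A to C.

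Levels are log2 intensity minus the 75th percentile of the array, so 0 is the level of a fairly bright probe and a difference of 1 is a doubling. Levels of different probes are not comparable. Each of the 10 genes was well above background on all 24 arrays, and 0 spots were saturated. An array had 57.1% to 72.6% of its probes well above background. The arrays lay on 3 slides of 8, and slide 3 held all SPRET/EiJ arrays and no BALB/c array of 4 weeks. Markers of other cell types were measured as well. The adipocyte gene Cfd had a level between 8.83 and 10.28, the fibroblast gene Dcn between 6.68 and 8.46, and the basal gene Acta2 between -0.17 and 6.58.

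Some glands stood apart before any comparison. The mean level of the 8 leukocyte and lymph node genes was 3.63 in BALB/c sham 8 weeks replicate A, 4.07 in BALB/c LDIR 8 weeks replicate B and 3.53 in SPRET/EiJ LDIR replicate A, and at or below -1.25 in the other 21 glands. Of their group, these 3 glands had the lowest level of 9, 10 and 9 of the 10 luminal genes. SPRET/EiJ sham replicate B had the lowest level of all 24 glands for 9 of the 10 genes, with a leukocyte mean of -2.24. For the LDIR, strain and time comparisons of the 10 genes, medians are given with and without these arrays. Values of the other gene lists include these arrays unless stated.

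The probes set what was read of each gene, so the first 30 of their 60 bases are shown for the genes that had more than one probe and for Cdh1, which was printed on 10 spots of each array. Coordinates are those of the whole probe in the mm9 build used by the files. The sequences run 5′ to 3′ on the strand of the transcript as the file gives them.
Krt8, brighter probe, chr15:101827138-101827197, minus strand: ccatccaaacccaattcagttgtattttct
Krt8, other probe, chr15:101828827-101828886, minus strand: agatctccgagatgaaccgcaacatcaacc
Cldn4, brighter probe, chr5:135421347-135421406, minus strand: accctactaatgaatttctgtagagtggat
Cldn4, other probe, chr5:135422135-135422194, minus strand: acaacgtcatccgcgacttctacaacccta
Cldn7, brighter probe, chr11:69781255-69781314, plus strand: aaaggcctcctggccactccacctccaaac
Cldn7, other probe, chr11:69778772-69778831, plus strand: ttagagccaggcaaatgaaggggcgtgacc
Cdh1, chr8:109193812-109193871, plus strand: acattctaacgggaaaaaggagacaagacc

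The pair of Krt8 probes begin 1689 bases apart, those of Cldn4 788 and those of Cldn7 2483. RefSeq (GRCm38.p6) lists 2 transcription starts for Cldn7. All 60 bases of the dimmer Cldn7 probe lie from 151 to 92 bases before the downstream start on the same strand. Its level was between -6.21 and -4.20, and it was well above background on 21 of 24 arrays. The brighter Cldn7 probe stands for the gene below.

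The 150 bases before the RefSeq starts of the genes were searched for short motifs. The table held 8 of the 10 genes and 9 starts, and Cdh1 and Krt19 were not in it. The motifs were CAGGTG, an E-box that Snail and Zeb repressors of epithelial genes bind, and AACCGG, a part of the Grainyhead-like motif. GGGCGG, the GC box, and TATAAA, the TATA box, were searched as well, each motif on both strands. CAGGTG was found before 6 of the 8 genes (6 of the 9 starts) and before 10.6% of all 32851 promoters in the table. GGGCGG was found for 5 of 8 genes (5 of 9 starts) and 28.6% of promoters. AACCGG was found for 1 of 8 (Cldn7, 1 of 9 starts) and 3.5%, and TATAAA for 1 of 8 (Muc1, 1 of 9 starts) and 7.6%. None of these motifs was found for Cldn3, for Krt18 or before the upstream start of Cldn7. A match is a description of the letters and not of binding. Windows of 4 genes are shown, with the motif matches in capitals.
Epcam, chr17:87635829-87635978, plus strand: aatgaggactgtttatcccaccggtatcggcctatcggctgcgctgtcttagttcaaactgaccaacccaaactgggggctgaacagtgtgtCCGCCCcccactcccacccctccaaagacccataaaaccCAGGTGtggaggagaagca
Krt8, chr15:102004343-102004492, minus strand: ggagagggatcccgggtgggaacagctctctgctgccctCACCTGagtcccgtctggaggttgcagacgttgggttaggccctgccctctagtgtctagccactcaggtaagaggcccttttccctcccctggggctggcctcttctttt
Cldn7, downstream start, chr11:69965271-69965420, plus strand: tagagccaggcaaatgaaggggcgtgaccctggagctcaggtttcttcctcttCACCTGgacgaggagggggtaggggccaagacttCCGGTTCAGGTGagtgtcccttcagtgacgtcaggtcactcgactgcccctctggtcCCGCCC
Cldn4, chr5:134946935-134947084, minus strand: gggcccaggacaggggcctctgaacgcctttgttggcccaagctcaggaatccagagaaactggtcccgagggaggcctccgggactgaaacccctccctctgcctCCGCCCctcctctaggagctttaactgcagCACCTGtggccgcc

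LDIR was compared with sham first. No luminal structure gene passed the criteria of the study's methods (unadjusted p under 0.05 and over 1.5-fold) at 2, 4 or 8 weeks in BALB/c or at 4 weeks in SPRET/EiJ mammary glands. Of all probes, 3.11%, 4.83%, 1.81% and 2.2% passed in these comparisons. In limma, 0 of the 10 genes had an unadjusted p under 0.05 in any of them, against 4.99%, 6.14%, 1.86% and 2.21% of all probes. No probe of the array had an adjusted p under 0.05 (0%). LDIR and sham glands overlapped for every gene by its brightest probe, while 5.94%, 6.45%, 0.871% and 3.53% of all probes were higher and 5.61%, 5.75%, 3.98% and 2.31% lower after LDIR without overlap. The methods' t-test called 0 of the 10 as well. As medians over the 10 genes, the changes in BALB/c were -0.01, 0.17 and -0.24 at the 3 times, and the change in SPRET/EiJ was -0.22. With 1 array left out the 2-week median ranged from -0.45 (without LDIR replicate A) to 0.30 (without sham replicate A), and the 4-week median from -0.13 (without sham replicate A) to 0.41 (without LDIR replicate B). The median of all probes was 0.0028, 0.02, -0.14 and 0.04. Part of the 4-week and 8-week groups lay on different slides, and with slide as a block the 10 genes had medians of -0.07 and 0.02. Without both leukocyte-rich glands, left out after seeing the data, the 8-week comparison called 0 of 10 with a median of -0.19. Without the LDIR gland of this pair alone the median was 0.17, and without the sham gland alone -0.63.

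The simple keratins form the intermediate filaments of luminal cells, with Krt8 pairing with Krt18. At 2 weeks, the level of Krt8 was 6.36, 4.23 and 4.78 in the LDIR glands and 5.37, 4.70 and 4.82 in the sham glands of BALB/c. At 4 weeks it was 5.62, 4.38 and 6.53 after LDIR and 4.31, 5.66 and 5.16 after sham. The highest and the lowest LDIR gland lay outside the range of the sham glands at 2 weeks, and so did the highest at 4 weeks. The difference was 0.16 (SE 0.55) at 2 weeks and 0.47 (SE 0.60, 95% interval -0.97 to 1.91) at 4 weeks. Without LDIR replicate C the 4-week difference was -0.04. At 8 weeks Krt8 differed by -0.47 (SE 0.51), and in SPRET/EiJ by -0.22 (SE 0.71). The other Krt8 probe gave 0.64, 0.71, -0.55 and 0.06 in the same order.

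Krt19, a keratin of luminal cells that can take the place of a missing partner, had the most negative difference of the 10 genes at 8 weeks. It measured 4.83, 4.07 and 5.68 after LDIR and 5.31, 6.03 and 5.48 after sham, a difference of -0.75 (SE 0.47, 95% interval -1.89 to 0.40, limma adjusted p = 1.0). Leaving out LDIR replicate C made this -1.16 with an unadjusted p of 0.0375 in limma, the only gene called in any 8-week comparison with an array left out. Without the 2 glands rich in leukocyte mRNA it was -0.50. Krt7 had the most positive difference at 2 weeks, 0.55 (SE 0.51), from levels of 2.69, 1.30 and 1.09 after LDIR and 1.88, 0.64 and 0.93 after sham. Without LDIR replicate A it was 0.05. Paired by replicate letter at 2 weeks, a pairing that the labels do not give, Krt7 was higher after LDIR by 0.81, 0.66 and 0.16. With the letter as a block its limma adjusted p was 0.73. Krt18 differed by -0.06 (SE 0.43), 0.16 (SE 0.38) and 0.03 (SE 0.43) at 2, 4 and 8 weeks.

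**Figure D1:**
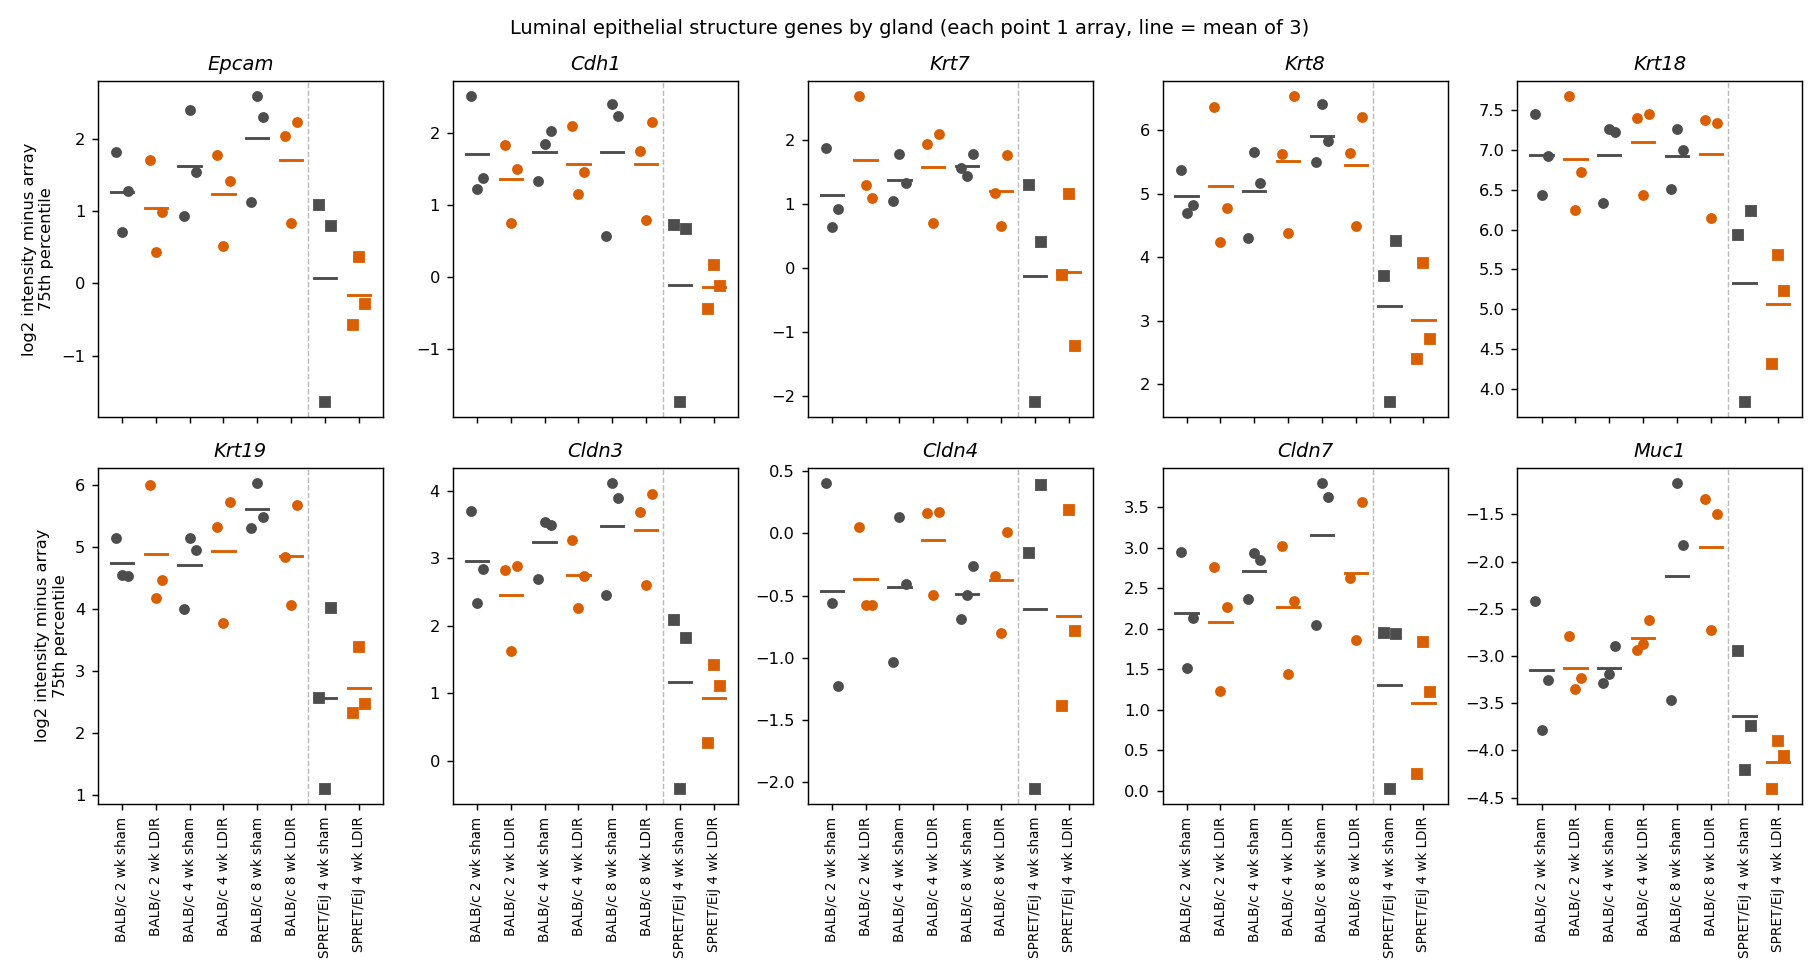
Level of each gene in all 24 glands (log2 intensity minus the 75th percentile of the array), by group; grey is sham, orange is LDIR, circles are BALB/c, squares are SPRET/EiJ, and lines are the mean of 3 glands. LDIR and sham glands overlap in every panel, and the mean of both SPRET/EiJ groups is below that of the 4-week BALB/c groups in every panel, least so for Cldn4 in sham glands.

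Adhesion genes gave the same picture. E-cadherin (Cdh1), the adhesion receptor of adherens junctions, measured 1.83, 0.76 and 1.51 after LDIR and 2.51, 1.23 and 1.38 after sham at 2 weeks. The difference was -0.34 (SE 0.43), and at 4 and 8 weeks it was -0.17 (SE 0.31) and -0.17 (SE 0.62). Epcam, a cell surface adhesion protein of epithelia, differed by -0.23 (SE 0.41), -0.39 (SE 0.47) and -0.30 (SE 0.55) at 2, 4 and 8 weeks. Within the pairs of 2 weeks Epcam was lower after LDIR in all 3, by -0.11, -0.28 and -0.29, and besides Krt7 and Epcam no member kept 1 sign in all 3 pairs. In SPRET/EiJ the difference was -0.02 (SE 0.66) for Cdh1 and -0.24 (SE 0.72) for Epcam. The SPRET/EiJ result rested on sham replicate B: without it Epcam differed by -1.102 (SE 0.38) and Cdh1 by -0.83 (SE 0.31), both called by the methods' criteria, with limma adjusted p of 1.0. The median of the 10 genes was then -0.88, and it was 0.11 without LDIR replicate A. The share of all probes called in the fit without sham replicate B is not given.

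Claudins are the strands of tight junctions. Cldn3 had the most negative difference at 2 and at 4 weeks. Its levels were 2.83, 1.63 and 2.89 after LDIR and 3.70, 2.33 and 2.84 after sham at 2 weeks, and 3.27, 2.26 and 2.73 against 2.70, 3.53 and 3.49 at 4 weeks. The sham gland with the highest level exceeded all LDIR glands at both times, while the lowest sham gland lay within the LDIR range. The differences were -0.51 (SE 0.47) and -0.48 (SE 0.34). Cldn7 differed by -0.45 (SE 0.41) and -0.47 (SE 0.64) at 4 and 8 weeks, and Cldn4 by 0.38 (SE 0.35) and 0.11 (SE 0.30). The dimmer Cldn7 probe was higher in all LDIR than in all sham glands at 2 weeks, by 0.37 (SE 0.17, limma adjusted p = 0.893). Muc1, the transmembrane mucin of the apical surface, differed by 0.31 (SE 0.18) at 4 weeks, by 0.30 (SE 0.70) at 8 weeks and by -0.49 (SE 0.37) in SPRET/EiJ. Without sham replicate A, Muc1 at 8 weeks was -0.35.

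The intervals say how large a change could have gone unseen. Over the 10 genes, the 95% intervals lay between -1.65 and 1.79 at 2 weeks, between -1.53 and 1.91 at 4 weeks, between -2.05 and 2.01 at 8 weeks and between -2.19 and 2.34 in SPRET/EiJ. A doubling of several of these genes, or a loss of the same size, lay within them. With 3 glands against 3, an exact permutation test of 1 gene cannot give a two-sided p below 0.1. The LDIR changes did not differ in a detectable way between 4 and 2 weeks, between 8 and 4 weeks or between the strains. In limma interaction terms over all 24 arrays, 0 of 10 genes were called, against 1.75%, 6.29% and 3.14% of all probes, and the smallest unadjusted p was 0.257, for Muc1 between strains.

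**Figure D2:**
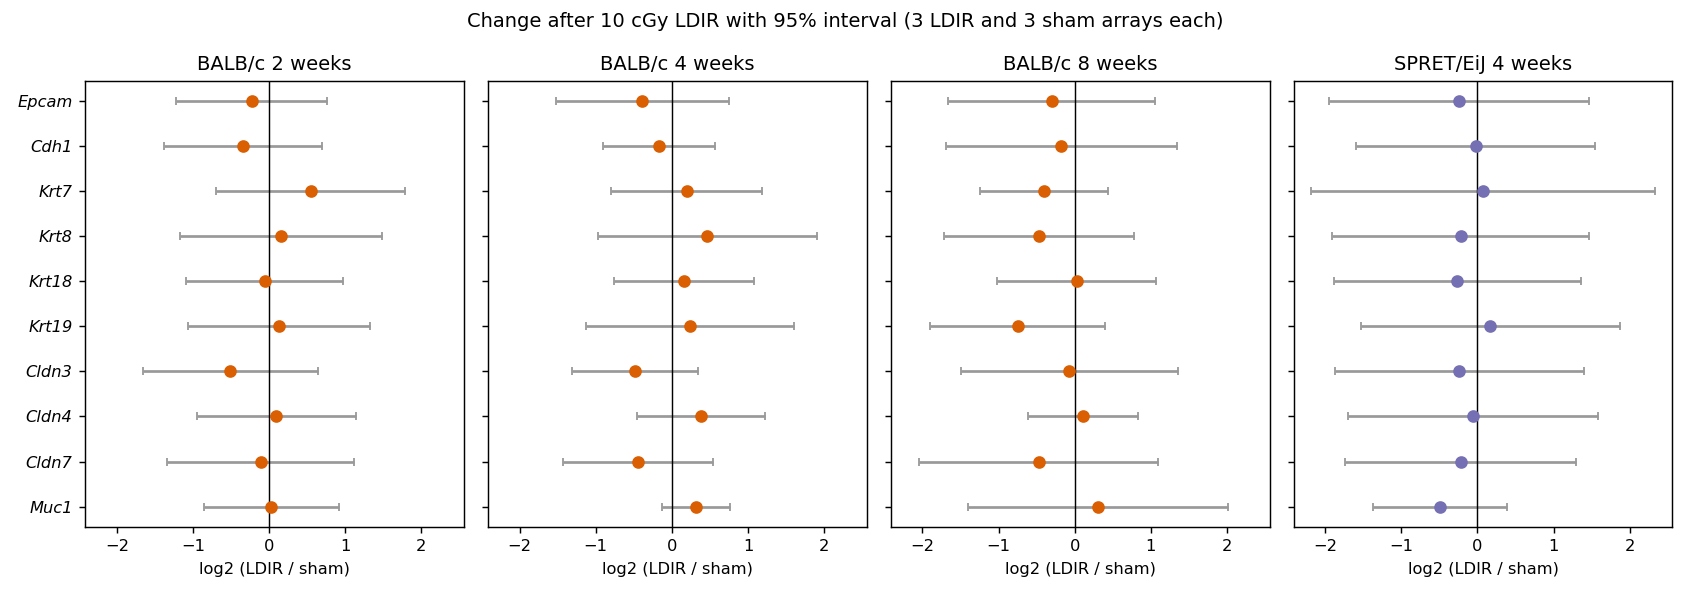
Difference between LDIR and sham for each gene (log2, points) with its 95% interval from limma (lines), in 4 panels of 3 LDIR and 3 sham arrays each. All 40 intervals include 0.

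Basal and luminal lineage genes were measured in the same glands. At 4 weeks, 2 of 9 basal genes were called lower after LDIR, the basal keratins Krt14 (-0.92, SE 0.30) and Krt5 (-0.72, SE 0.29), both with a limma adjusted p of 0.783. Other cell types moved in the same comparison. Of 4 macrophage genes 2 were called higher (median 0.78), and of 5 brown adipocyte genes 2 were called lower (median -1.66). Of 8 milk protein genes 2 were called higher (median 1.35). Their sham means, -7.65 and -5.68, were near or below the lowest level of a probe well above background on those sham arrays (-5.76 to -5.52). Over all probes, 4.83% were called at 4 weeks in either direction. The part of these cell types in the basal values was not tested. The luminal structure genes minus the basal genes were 1.01 ± 0.45 (SD, n = 3) after LDIR and 0.63 ± 0.48 after sham. Among 9 luminal lineage and hormone genes, 1 was called at 2 weeks, the estrogen receptor Esr1 (-0.68, SE 0.19, adjusted p = 0.893). At 8 weeks 2 were called, the growth factor Areg (-2.23, SE 0.50) and the signal Wnt4 (-1.15, SE 0.37), both with an adjusted p of 1.0 in limma. Both Areg and Wnt4 are made by hormone-responsive luminal cells, but 5 of the 9 genes of the list were above 0 at 8 weeks and its median was 0.04. These 8-week values are given only with both leukocyte-rich glands included. The shares of all probes called lower at these times, from the earliest to the latest, were 0.884%, 1.38% and 1.64%. Of 12 tight junction, 10 adherens junction and desmosome and 11 polarity genes, 0 were called in any LDIR comparison, and of 9 epithelial regulators only Elf3 at 4 weeks (-0.78, SE 0.28, adjusted p = 0.783).

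The strains were compared next, at 4 weeks. All 10 genes had a higher mean in BALB/c than in SPRET/EiJ mammary glands, in sham and in LDIR mice. The median difference was 1.58 in sham and 1.67 in LDIR glands, while the median over all probes was -0.06 and -0.05. Without SPRET/EiJ sham replicate B the sham median was 0.81, and without SPRET/EiJ LDIR replicate A the LDIR median was 1.52. The methods' criteria for strains (unadjusted p under 0.001 and over 1.5-fold) called 0 of 10 in either, against 8.86% and 5.68% of all probes. At a limma adjusted p under 0.05, 0 of 10 passed in sham (18.7% of all probes) and 4 of 10 in LDIR glands (11.1%), namely Cdh1, Krt18, Cldn3 and Muc1. Both comparisons are of 3 against 3 arrays.

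Both treatments were then put in a single limma fit over the 12 arrays of 4 weeks, with LDIR as a covariate, a fit chosen after seeing the data. In it 5 genes, Cdh1, Krt8, Krt18, Krt19 and Cldn3, were called higher in BALB/c by the methods' criteria, against 16.6% of all probes called in either direction and 9.64% called higher. All but Cldn4, that is 9 of 10, had an adjusted p under 0.05 and were higher in BALB/c, against 29.0% of all probes in either direction and 15.7% higher. Without SPRET/EiJ sham replicate B the counts were 2 and 8, without LDIR replicate A they were 0 and 7, and without both they were 2 and 6. Over all probes, 14.9% and 26.3%, 20.1% and 35.1%, and 18.6% and 32.9% passed in these 3 fits in either direction.

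Among the keratins, Krt8 measured 4.31, 5.66 and 5.16 in sham and 5.62, 4.38 and 6.53 in LDIR glands of BALB/c. In SPRET/EiJ it measured 3.70, 1.72 and 4.26 in sham and 2.40, 3.91 and 2.72 in LDIR glands. The lowest BALB/c gland, at 4.31, was above the highest SPRET/EiJ gland, at 4.26. Krt8 was 4.46-fold higher in BALB/c (log2 2.16, SE 0.49, limma adjusted p = 0.00555), and the other probe gave 1.90 (SE 0.57). Krt18 was 3.52-fold higher (log2 1.82, SE 0.41, adjusted p = 0.0053) with a range of 6.33 to 7.45 in BALB/c against 3.83 to 6.24 in SPRET/EiJ. Krt19 was 4.52-fold higher (log2 2.18, SE 0.48, adjusted p = 0.00418), but its ranges of 3.77 to 5.73 and 1.102 to 4.02 overlapped. Krt7 differed by 1.57 (SE 0.55, adjusted p = 0.0491).

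Cdh1 measured 1.34, 1.85 and 2.03 in sham and 2.10, 1.15 and 1.46 in LDIR glands of BALB/c, and 0.72, -1.73 and 0.67 in sham and -0.44, 0.16 and -0.13 in LDIR glands of SPRET/EiJ. All 6 BALB/c glands were above all 6 SPRET/EiJ glands. This made Cdh1 3.43-fold higher in BALB/c (log2 1.78, SE 0.38, adjusted p = 0.00366). Epcam was 2.79-fold higher (log2 1.48, SE 0.45, adjusted p = 0.0267), with 4 of 6 BALB/c glands above all SPRET/EiJ glands.

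The claudins differed among themselves in size. Cldn3 was 3.88-fold higher in BALB/c (log2 1.95, SE 0.40, adjusted p = 0.00287), with ranges of 2.26 to 3.53 and -0.42 to 2.09 that did not overlap. Cldn7 was 2.46-fold higher (log2 1.30, SE 0.40, adjusted p = 0.0269), whereas its dimmer probe gave -0.10 (SE 0.22). Cldn4 differed by 0.39 (SE 0.41, 95% interval -0.50 to 1.28) and by 0.38 (SE 0.43) with its other probe. In the same fit it was 0.095 without SPRET/EiJ sham replicate B and -0.15 without LDIR replicate A as well. Its BALB/c glands ranged from -1.03 to 0.17 and its SPRET/EiJ glands from -2.05 to 0.39, so that no BALB/c gland exceeded all SPRET/EiJ glands. Without SPRET/EiJ sham replicate B the sham difference of Cldn4 was -0.55 instead of 0.17. Whether Cldn4 differed less between strains than the other members was not tested. Muc1 was 1.88-fold higher in BALB/c (log2 0.91, SE 0.23, adjusted p = 0.0108), and in LDIR glands its difference of 1.31 became 0.52, with an adjusted p no longer under 0.05, when normexp background correction was used. In all, the strains did not overlap for Cdh1, Krt8, Krt18 and Cldn3, which is 4 of 10 genes, while 9.94% of all probes were higher in all 6 BALB/c glands.

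**Figure D3:**
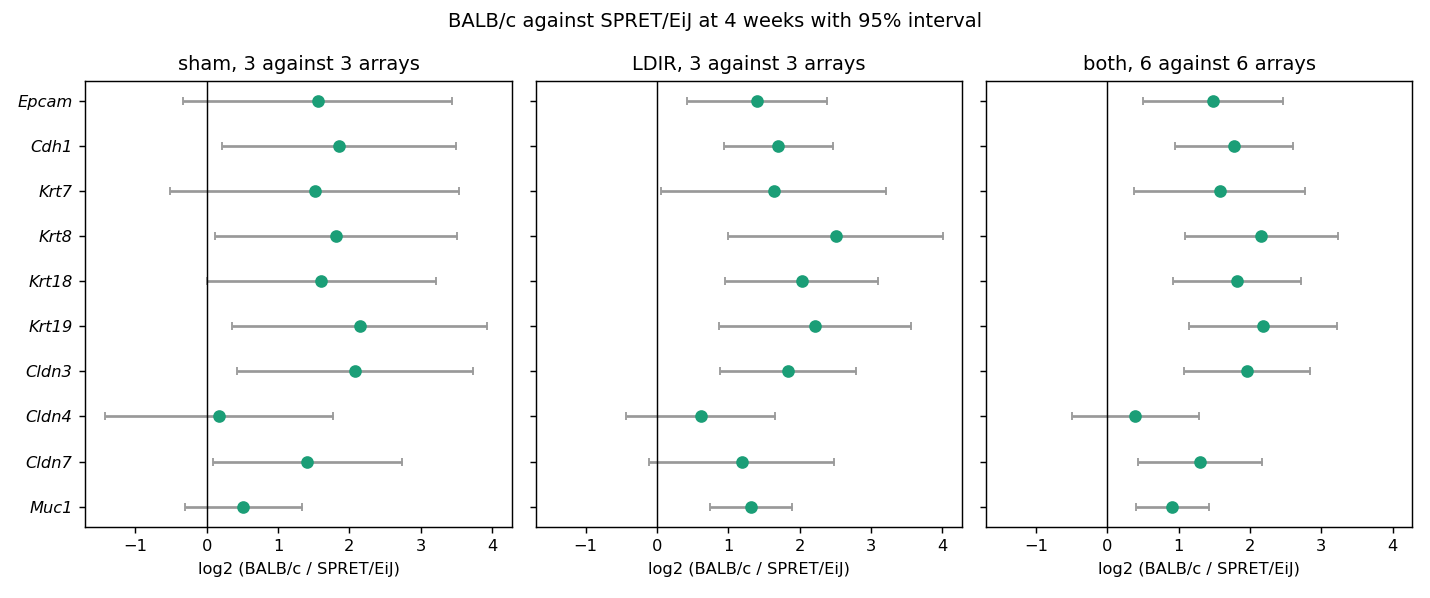
Difference between BALB/c and SPRET/EiJ at 4 weeks for each gene (log2, points above 0 are higher in BALB/c) with its 95% interval from limma, in sham glands, in LDIR glands and in both together. All 30 points lie above 0, and in the fit of both the interval of Cldn4 is the only one that includes 0.

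No slide held 4-week arrays of both strains, so slide and strain are bound together in these groups. A fit of all 24 arrays with slide as a block, which separates them only through the other BALB/c groups, gave medians of 1.57 in sham and 1.41 in LDIR glands, no gene with an adjusted p under 0.05, and -0.03 for Muc1 in sham. Probes of the array were designed on the reference genome, and a lower mRNA level and a poorer match of the SPRET/EiJ sequence to a probe cannot be told apart here.

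Other epithelial genes did not all follow. In the 12-array fit, 10 of 12 tight junction genes, 8 of 10 adherens junction and desmosome genes, 8 of 11 polarity genes, 7 of 9 epithelial regulators and 8 of 9 luminal lineage genes had a positive difference, with medians of 0.86, 0.46, 1.06, 0.84 and 1.39. The splicing regulator Esrp2 (2.15, SE 0.27, adjusted p = 6.41e-05), the tight junction scaffold Tjp3 (2.12, SE 0.35, adjusted p = 0.000562) and the prolactin receptor Prlr (2.01, SE 0.31, adjusted p = 0.000323) were higher in BALB/c. The polarity gene Llgl2 (-0.89, SE 0.14, adjusted p = 0.000402) and the desmosome gene Pkp2 (-1.33, SE 0.37, adjusted p = 0.018) were lower. Of 9 basal genes, 5 had a positive difference with a median of 0.39, led by Acta2 (3.69, SE 0.21) and Krt17 (2.66, SE 0.35). Of the 8 leukocyte genes, 7 had a negative difference in this fit (median -0.84). In sham glands alone, which leave out the leukocyte-rich SPRET/EiJ LDIR replicate A, 4 of 8 were negative (median 0.06), and in LDIR glands 8 of 8 (median -1.70). The part of these cell types in the luminal difference was not tested.

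In sham BALB/c glands the luminal structure genes were also followed over time. The 2-week sham arrays lay on slide 1, the 8-week sham arrays on slide 2 and the 4-week sham arrays on both. Time and slide are therefore largely bound together. From 2 to 4 weeks 0 of 10 were called (3.04% of all probes), with a median difference of 0.05. From 4 to 8 weeks 0 of 10 were called, against 13.8% of all probes, and the median was 0.31. With 1 array left out it ranged from 0.04 (without replicate A of 4 weeks) to 0.79 (without replicate A of 8 weeks). Under the other processing alternatives, slide as a block among them, this median ranged from 0.29 to 0.40. Krt19 measured 4.00, 5.15 and 4.96 at 4 weeks and 5.31, 6.03 and 5.48 at 8 weeks. All its 8-week glands were above all 4-week glands, and 9.62% of all probes were higher without overlap. The difference was 0.91 (SE 0.39, limma unadjusted p = 0.0604 and adjusted p = 0.383). For Krt8 the brighter probe gave 0.87 (SE 0.43) and the other probe 1.61 (SE 0.37, unadjusted p = 0.00459 and adjusted p = 0.164). Cldn4 gave -0.05 (SE 0.35) with its brighter probe and 0.74 (SE 0.27) with the other, so the probes disagreed. The limma p of this other probe was 0.0339 unadjusted and 0.308 adjusted. The other probes of Krt8 and Cldn4 passed the methods' criteria without overlap, while their brightest probes did not pass. The call was near the line: several processing alternatives called 1 or 2 genes here, Krt8, Krt19 or both. Leaving out 8-week replicate A called 3, Krt19, Cldn7 and Muc1, and leaving out 4-week replicate B called Krt8 and Krt19. Shares of all probes called in these other fits are not given, so these counts have no share to be set against.

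Other cell types differed between the same sham glands of 8 and 4 weeks. By the same criteria, 6 of 8 white adipocyte and 4 of 5 brown adipocyte genes were lower and 5 of 6 skeletal muscle genes higher at 8 weeks, against 8.45% lower and 5.33% higher over all probes. Of the luminal lineage and hormone genes, Areg (-2.51, SE 0.56), Esr1 (-1.39, SE 0.39) and Prlr (-0.89, SE 0.27) were called lower. The tight junction claudins Cldn1 (2.44, SE 0.62) and Cldn8 (1.26, SE 0.45) were called higher, while another claudin, Cldn10 (-0.86, SE 0.33), was called lower. The smallest adjusted p over all probes in this comparison was 0.0853 in limma, and the part of these cell types in the luminal values was not tested.

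Glands of the same group differed from each other. Within groups the SD of a gene was 0.62 (Muc1) to 0.92 (Krt7) on the log2 scale, which is 1.54-fold to 1.89-fold. The 10 spots of Cdh1 on a single array had an SD of 0.04 to 0.12 only, against 0.77 between glands of a group. The share of a gene's variance over the 24 arrays that lay within groups was 31.0% for Krt19, 32.8% for Cldn3 and 34.5% for Krt8, and 91.3% for Cldn4. The mean of the 10 genes was 2.23 ± 0.58 (SD, n = 3) in sham and 2.20 ± 0.66 in LDIR BALB/c glands at 2 weeks. The 4-week sham and LDIR means were 2.38 ± 0.46 and 2.41 ± 0.59, and the 8-week means 2.78 ± 0.61 and 2.56 ± 0.69. SPRET/EiJ glands had means of 0.92 ± 1.27 in sham and 0.77 ± 0.59 in LDIR mice. The order of the 6 BALB/c groups was within these SDs, and both SPRET/EiJ groups lay below all of them.

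The 10 genes went up and down together within groups. Over the 45 pairs of genes, Pearson's r of the deviations from the group means ranged from 0.475 (Krt19 with Muc1) to 0.972 (Cdh1 with Cldn3), with a median of 0.813 over 24 arrays. The keratin pair Krt8 and Krt18 had r of 0.933, and Krt8 and Krt19 had 0.967. Set against the mean of the other 9, Epcam had r of 0.967 and Krt18 of 0.963, while Krt7 had 0.807 and Muc1 0.69. Without SPRET/EiJ sham replicate B the median was 0.772. The probe pairs had r of 0.98 for Krt8, 0.947 for Cldn4 and 0.383 for Cldn7. These values are descriptions: all genes on an array share its RNA and its scaling.

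**Figure D4:**
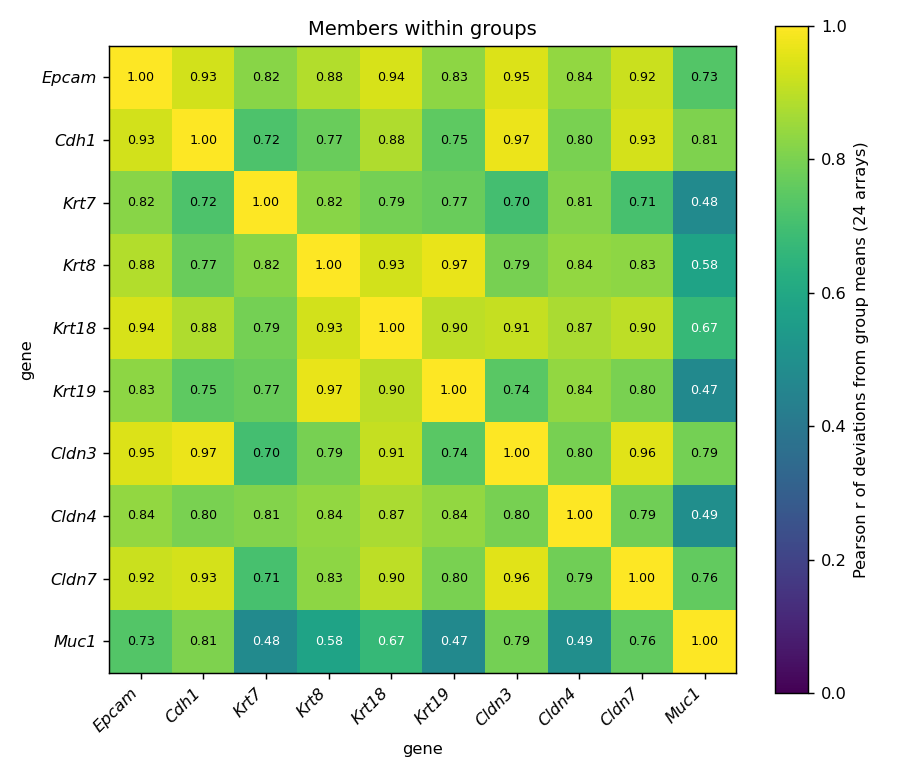
Pearson's r between the deviations of each pair of genes from their group means, over 24 arrays (8 groups of 3). All 45 pairs are above 0; Cdh1 with Cldn3 is highest (0.972) and Krt19 with Muc1 lowest (0.475).

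Gene lists of the gland were set against the mean of the 10 genes in the same way. Deviations of the luminal lineage and hormone list followed it most (r = 0.977), then polarity and apical surface (0.921), epithelial regulators (0.911), tight junction (0.898) and adherens junction and desmosome genes (0.889). The basal list had r of 0.698, and the milk protein list 0.526, or 0.389 without SPRET/EiJ sham replicate B. White adipocyte genes had r of 0.049 (0.211 without SPRET/EiJ sham replicate B), skeletal muscle genes 0.118 and cornified epidermis genes -0.248. The macrophage list had r of -0.576 and the leukocyte list -0.486. Both values include the leukocyte-rich glands, which were low in the luminal genes, and no r without these glands is given. In BALB/c the luminal genes minus the basal genes lay between 0.52 and 1.01 as group means at 2 and 4 weeks and were 0.21 ± 0.44 (SD, n = 3) in sham and -0.22 ± 0.13 in LDIR glands at 8 weeks.

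**Figure D5:**
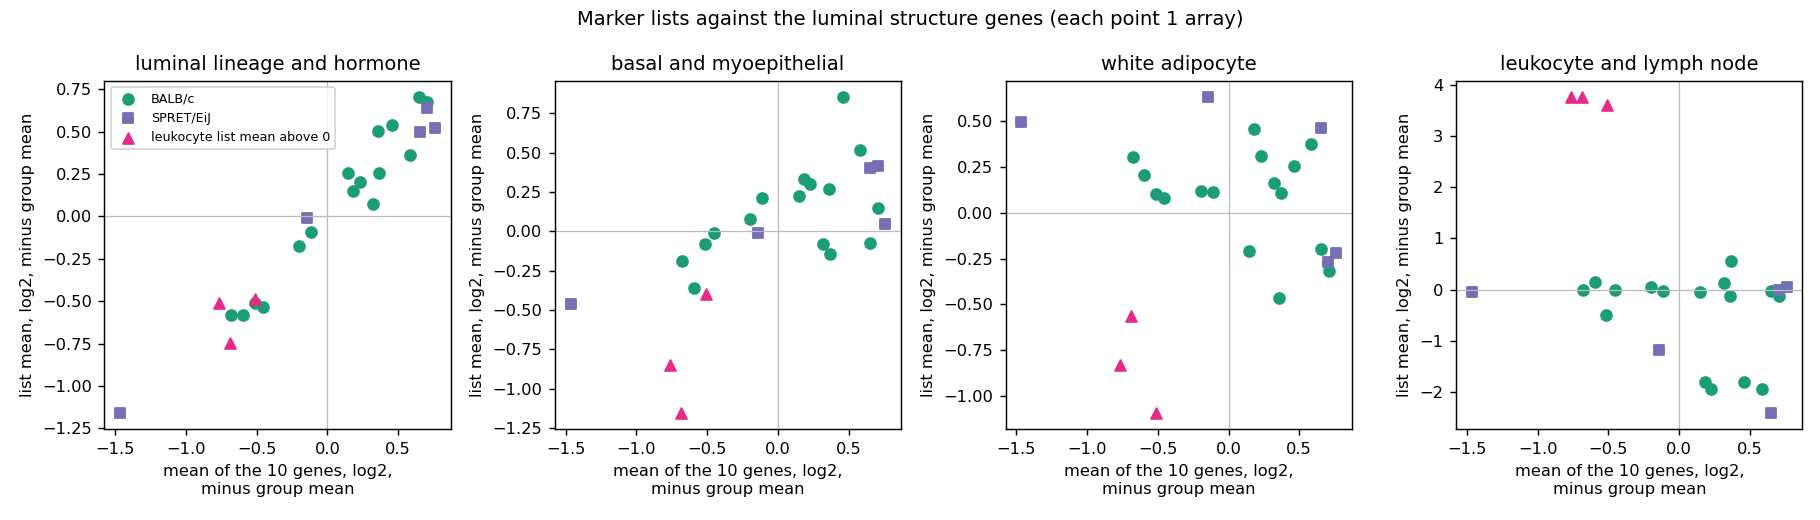
Mean of a marker list (y axis) against the mean of the 10 luminal structure genes (x axis), both as log2 deviations from the group mean; each point is 1 of 24 arrays, and triangles are the 3 glands with a leukocyte list mean above 0. Luminal lineage genes follow the 10 genes (r = 0.977), with lower r for basal genes (0.698) and for white adipocyte genes (0.049, or 0.211 without SPRET/EiJ sham replicate B).

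Of 13419 other genes with a known symbol and a level well above background on all arrays, 45 had r over 0.9 with the mean of the 10 genes within groups. The 8 most alike were Kcnk1 (r = 0.966), Macc1 (0.961), 2310030G06Rik (0.957), Rab25 (0.954), Lsr (0.953), Cgn (0.951), Spint1 (0.95) and Ssx2ip (0.95). Kcnk1 is a potassium channel, Rab25 a small GTPase of epithelial vesicle traffic, Lsr a protein of tricellular junctions, Cgn (cingulin) a tight junction protein and Spint1 an inhibitor of surface proteases. Over the raw levels of all 24 arrays, which include the differences between strains, r was between 0.826 and 0.972 for the first 7 and -0.06 for Ssx2ip.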

How the data were processed

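Each of the 24 mice gave 1 mammary gland RNA sample for a 1-colour Agilent array. Per the file headers, background subtraction and detrending by the scanner software came before the intensity values were deposited. A second deposited table holds log2 values normalized by the authors to the 75th percentile. With probes and arrays centred, 99.985% of these lay within 0.01 of the log2 levels used here. The levels were made from 59305 spots that carry probes. Over the 24 arrays 3777 spots marked as outliers were dropped, each array's 75th percentile was subtracted after taking log2 of the intensity, and spots of a probe were averaged. With 3 arrays a group, array number sets the precision.

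The genes, the marker lists and the tests were chosen with earlier results of these data known. Groups follow the sample labels. The labels do not say how mice were housed or processed together. Comparisons used limma (version 3.58.1, R 4.3.3) and the 6 arrays concerned, or all 24 for interactions, and p-values were adjusted by Benjamini-Hochberg over all probes. Scripts were tested on simulated data. Besides the 10 genes, named genes are those of the other lists that passed the criteria of the methods without overlap between groups, at most 4 per list, the highest probe of a marker list, and the 8 genes most alike. Genes of the 12-array fit, Krt5, Elf3 and the genes called when an array was left out were named after their values were seen. Replicate letters were checked as pairs over 29317 probes well above background on all arrays. At 2 weeks, deviations of LDIR and sham arrays of the same letter correlated with r of 0.167, 0.481 and 0.171 over these probes. Over all probes r was 0.013, 0.14 and -0.031, and only LDIR replicate B matched its own letter best. Letters were taken as pairs at 2 weeks on the first values alone, so this pairing is uncertain. The alternatives changed the background correction (normexp, offset 50), the scaling (quantile, median or the authors' log2 values), outlier spots, the filter on dim probes, the test (that of the methods), blocks for replicate or slide, the arrays fitted together, the probe of a gene, and each array in turn. Promoter windows are from RefSeq (GRCm38.p6). Figures were drawn with matplotlib 3.10.9. The values of 1 gene of the other lists are not reported here.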

Additional observations from a re-analysis of the deposited data

How the results depend on the processing

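No LDIR comparison gained a called gene under another background correction, scaling, filter, test, block or choice of probe. When single arrays were left out, the number of the 10 genes called by the methods' criteria ranged from 0 to 1 at 8 weeks in BALB/c (1 without LDIR replicate C) and from 0 to 2 in SPRET/EiJ (2 without sham replicate B). Single genes turned sign: Krt8 at 4 weeks (range over arrays left out -0.0425 to 1.03), Muc1 at 8 weeks (-0.35 to 0.80) and Krt19 in SPRET/EiJ (-0.56 to 0.89; -0.16 without LDIR replicate B).

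Between strains, 337 of 340 values of single genes under the alternatives were above 0. In sham glands the exceptions were Cldn4 (-0.11 without BALB/c sham replicate B, range -0.55 to 0.67) and Muc1 (-0.0252 with slide as a block). The sham median ranged from 0.81 (without SPRET/EiJ sham replicate B) to 2.05. By the methods' criteria, LDIR glands gave 4 genes with normexp, 2 with detected probes only, 1 with the mean of all probes and 0 to 1 with an array left out (1 without BALB/c LDIR replicate B). Genes with an adjusted p under 0.05 in limma numbered 1 with normexp, 2 with detected probes only, 3 with all 24 arrays in one fit and 0 to 1 with an array left out in sham glands. In LDIR glands they numbered 7 with detected probes only and 0 with slide as a block (1 with the methods' t-test in place of limma). They ranged from 0 to 4 with an array left out (0 without BALB/c LDIR replicate A or C, 1 without SPRET/EiJ LDIR replicate C). The fit of 12 arrays, added after seeing the data, gave 5 by the criteria and 9 by adjusted p for either comparison, 2 and 8 without SPRET/EiJ sham replicate B, 0 and 7 without LDIR replicate A, and 2 and 6 without both.

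In sham glands over time, 4 against 2 weeks gave 0 to 1 called genes with an array left out (Cldn7 without 2-week replicate A), and Krt19 ranged from -0.27 to 0.31 (0.16 without 2-week replicate A). For 8 against 4 weeks the count was 2 with normexp, 2 with quantile normalization, 1 with detected probes only, 1 with the mean of all probes and 0 to 3 with an array left out (2 without 4-week replicate B, 3 without 8-week replicate A). Cldn4 was 0.34 with the mean of all probes and 0.06 to 0.24 without 8-week replicate A or 4-week replicate B.

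With the replicate letter as a block, the count of 8 against 4 weeks was 2, and the adjusted p count of LDIR glands between strains was 1 instead of 4. The block changed no other count of called genes. Same-lettered arrays did not deviate together in every pair at 4 weeks (r of -0.021, 0.14 and -0.017), at 8 weeks (-0.56, -0.565 and 0.546) or in SPRET/EiJ (0.106, 0.177 and -0.196). The cause of these changes was not tested. All 10 genes were well above background on every array by their brightest probe. Muc1 between strains was 0.52 instead of 1.31 in LDIR glands with normexp.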
